A study of Arabidopsis thaliana with 6 samples.

Results

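The master regulators of seed maturation described here are 10 transcription factor genes of Arabidopsis thaliana, namely LEC1, LEC2, FUS3, ABI3, ABI4, ABI5, EEL, WRI1, MYB118 and MYB115. They were picked by locus identifier and not by any measured value, and rows of the count table that belonged to 1 locus were summed. All 10 were among the 33471 loci that the table gave after this step. RNA sequencing was done on whole developing seeds of the strain Columbia-0 at 13 days after flowering, from wild type (WT), ar21 and i4g1 plants. Each line gave 2 biological replicates of pooled seeds, for 6 libraries in all. Day and night temperatures were 22 and 17 °C and the light period was 16 hours for every line, and the text on extraction gives the age of the seeds as 12 to 13 days. The labels do not say what is mutated in ar21 or i4g1. From knowledge of the study, both are read as mutants of eIFiso4G1, which scaffolds a translation initiation complex found in plants. The sources used here give neither the kind of allele nor the number of independent lines.

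Seed maturation is the phase in which the embryo stops dividing, fills with storage protein and oil, and becomes able to survive drying. LEC1, a subunit of an NF-Y complex that binds CCAAT boxes, and the B3 domain factors LEC2, FUS3 and ABI3, which bind the RY element, stand at the top of this programme and activate one another. ABI3 works with bZIP factors such as ABI5, EEL and bZIP67 at ACGT-type elements of storage and late embryogenesis genes, WRI1 switches on glycolysis and fatty acid synthesis for oil, and MYB118 is a factor of the maturing endosperm.

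The libraries held 3418773 to 8435759 reads in the 5 of 6 where reads were recovered from the normalised counts. Nuclear 18S rRNA took 40.8% and 60.7% of the 2 WT libraries, 30% and 19.8% of the ar21 libraries and 11.5% and 3.9% of the i4g1 libraries. WT replicate 2 was thus the shallowest, with 1344947 reads outside 18S rRNA. Of the other reads, mitochondrial transcripts took 4.64% and 5.73% in WT, 1.79% and 0.947% in ar21, and 0.609% and 0.178% in i4g1. Plastid transcripts took 2.33% and 3.09%, 0.821% and 0.526%, and 0.384% and 0.122%. These shares moved with the line, and their part in the results below was not tested. After rescaling to the summed nuclear loci without 18S rRNA, the median log2 fold change of all tested loci was -0.01 in ar21 and -0.07 in i4g1, beside 0.01 in each without it. eIFiso4G1 (AT5G57870) stood at 368 and 454 normalised counts in WT, 116 and 123 in ar21, and 24.5 and 45.6 in i4g1. Seed identity was plain from the cruciferin gene CRB, at 45674.2 to 61877.8 in the 6 libraries, and the oleosin gene OLE1, at 74521.3 to 131118.0. Other abundant seed genes, however, were listed near 0. The cruciferin gene CRA1 was at 10.4 to 47.6, and FAB2, RAB18 and HSD1 were at 0 in all libraries, so a low value in this table does not show that a gene was silent.

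Promoters are shown first, because the regulators are defined by the DNA elements they bind and bind one another's genes. Each window runs from 270 bases before the annotated gene start to 30 bases from it, in RefSeq's TAIR10.1 genome. Both strands were searched for the RY element, whose letters are CATGCA, and for the G-box, which reads CACGTG. The core of many ABA-responsive elements was taken as ACGTG, and the box bound by NF-Y complexes is named for its letters CCAAT. The longer AW-box, bound by WRI1, was searched too. Each G-box also holds an ACGTG on both strands. Of 30351 windows in the genome, 10.3% held an RY element, 6.93% a G-box, 25.2% an ACGTG, 51.4% a CCAAT box and 12.1% an AW-box. Of the 10 regulators, 2 held an RY element, 1 a G-box, 2 an ACGTG, 4 a CCAAT box and 1 an AW-box. A match is a description of letters and not evidence of binding. The windows of LEC1 and MYB118, the regulators that passed a test against WT, of FUS3 and ABI5, and of 2 genes discussed further on (bZIP67, a bZIP partner of LEC1, and EM1, a late embryogenesis target) read as follows, 5′ to 3′ on the gene's strand, with RY, ACGTG and CCAAT matches in capitals.
LEC1, chr1:7729620-7729919, - strand: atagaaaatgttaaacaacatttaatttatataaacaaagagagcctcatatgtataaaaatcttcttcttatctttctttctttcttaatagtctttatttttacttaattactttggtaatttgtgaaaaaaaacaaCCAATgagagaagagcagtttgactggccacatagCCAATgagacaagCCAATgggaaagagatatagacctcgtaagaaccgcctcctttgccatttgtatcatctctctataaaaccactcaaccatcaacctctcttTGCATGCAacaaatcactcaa
MYB118, chr3:10290905-10291204, - strand: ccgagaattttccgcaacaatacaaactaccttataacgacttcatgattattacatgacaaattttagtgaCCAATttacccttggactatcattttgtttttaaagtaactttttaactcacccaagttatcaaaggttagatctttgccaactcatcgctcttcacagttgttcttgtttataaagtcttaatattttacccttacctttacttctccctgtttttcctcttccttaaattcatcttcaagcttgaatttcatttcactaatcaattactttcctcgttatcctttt
FUS3, chr3:9856183-9856482, - strand: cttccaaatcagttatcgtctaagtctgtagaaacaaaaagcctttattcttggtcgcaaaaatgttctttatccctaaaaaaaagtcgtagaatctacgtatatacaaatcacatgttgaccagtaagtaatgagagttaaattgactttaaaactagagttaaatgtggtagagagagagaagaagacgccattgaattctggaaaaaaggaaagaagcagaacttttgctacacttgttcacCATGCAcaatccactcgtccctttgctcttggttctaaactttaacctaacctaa
ABI5, chr2:15207607-15207906, - strand: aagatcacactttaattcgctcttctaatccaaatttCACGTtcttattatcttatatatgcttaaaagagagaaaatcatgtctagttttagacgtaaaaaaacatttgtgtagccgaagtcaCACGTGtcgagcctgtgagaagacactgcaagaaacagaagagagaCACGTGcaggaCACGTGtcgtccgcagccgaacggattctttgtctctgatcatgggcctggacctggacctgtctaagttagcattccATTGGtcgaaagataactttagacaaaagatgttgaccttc
bZIP67, chr3:16081877-16082176, - strand: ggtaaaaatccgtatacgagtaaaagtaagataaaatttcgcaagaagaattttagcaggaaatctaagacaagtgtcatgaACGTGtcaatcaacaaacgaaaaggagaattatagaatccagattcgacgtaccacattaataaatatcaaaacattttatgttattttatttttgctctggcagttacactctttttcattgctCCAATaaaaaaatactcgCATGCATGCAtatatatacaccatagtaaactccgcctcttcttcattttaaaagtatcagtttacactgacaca
EM1, chr3:19214452-19214751, + strand: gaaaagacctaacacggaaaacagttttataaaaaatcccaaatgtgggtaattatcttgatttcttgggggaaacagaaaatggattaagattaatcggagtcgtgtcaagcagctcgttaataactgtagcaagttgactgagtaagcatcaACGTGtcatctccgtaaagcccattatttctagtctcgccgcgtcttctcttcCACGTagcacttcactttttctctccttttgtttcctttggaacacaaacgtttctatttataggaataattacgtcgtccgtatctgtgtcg

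LEC1 held 3 CCAAT boxes, the element of its own protein family, which began 131, 96 and 83 bases before the gene start, and a pair of overlapping RY elements that began at bases 10 and 12 of the gene. FUS3 held 1 RY element, 25 bases before the start. ABI5 held 3 G-boxes, which began 146, 100 and 89 bases before the start and carry 6 of its 7 ACGTG matches. The window of bZIP67 held 3 overlapping RY elements, and that of MYB118 had only a CCAAT box among the letters searched. None of these letters was found in the windows of LEC2, ABI3, ABI4 and WRI1. In contrast, 6 of 6 oil body genes and 5 of 6 storage protein genes held an RY element, 13 of 14 late embryogenesis genes an ACGTG and 10 of 14 a G-box. Of 15 WRI1 targets, 4 held an AW-box, where 12.1% of all windows did, and 0 held an RY element. LEC1 and bZIP67 also held 1 AW-box each, which is not set in capitals above.

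**Figure D1:**
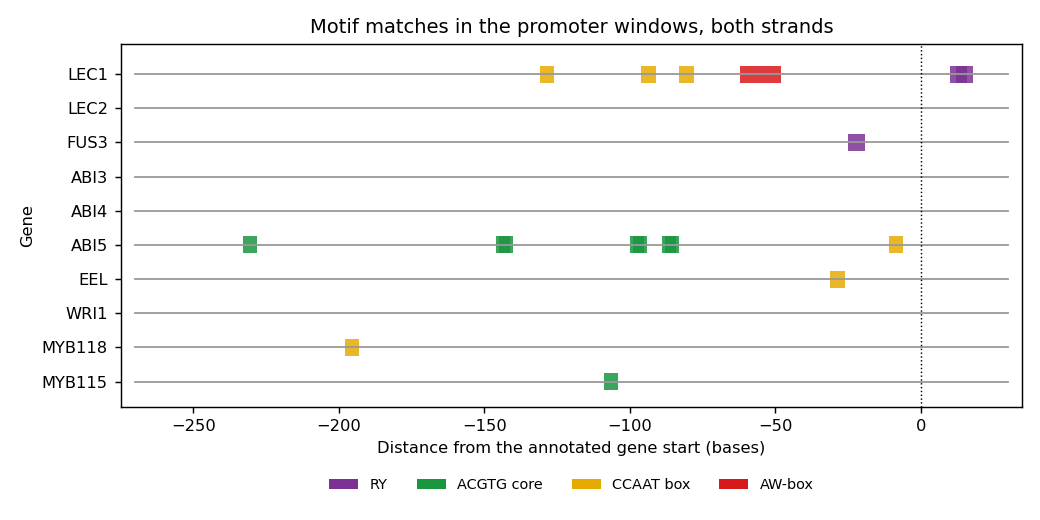
Matches to 4 motifs in the promoter windows of the 10 regulators, by distance in bases from the annotated gene start (negative values lie before it). LEC1 shows 3 CCAAT boxes and a pair of overlapping RY elements, and ABI5 shows 3 G-boxes as overlapping ACGTG cores.

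Levels of different genes were compared as normalised count per kb of exon. In WT the order was led by EEL at 990 ± 91.9 (SD, n = 2 libraries here and below), followed by FUS3 at 308 ± 34.1 and WRI1 at 308 ± 21.9, whose ranges overlapped. ABI3 followed at 118 ± 6.81 and ABI5 at 65.8 ± 6.67. MYB118, at 47.6 ± 9.54, and ABI4, at 30.9 ± 14.2, overlapped in turn, and LEC1 came next at 12.1 ± 0.722. LEC2, at 1.53 ± 0.849, and MYB115, at 0, closed the order. Set against all tested loci in WT, EEL stood at or above 98.6% of them, FUS3 and WRI1 at or above 93.5% and LEC1 at or above 13.9%. In both mutant lines MYB118 stood above ABI5, with ranges that did not overlap: 82.6 ± 3.14 against 44.8 ± 12.8 in ar21, and 77.5 ± 2.38 against 49.4 ± 0.777 in i4g1. In WT the order of these genes was the reverse.

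**Figure D2:**
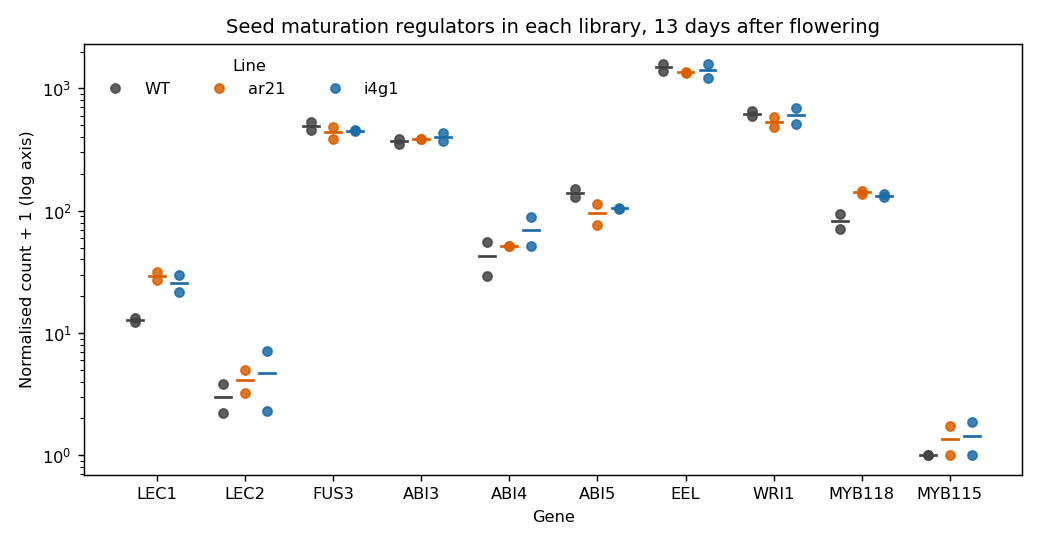
Normalised count + 1 (log axis) of each of the 10 regulators in each library, with 2 points and their mean (bar) for WT, ar21 and i4g1. Both libraries of each mutant line lie above both WT libraries for LEC1 and MYB118 and below them for ABI5, while LEC2 and MYB115 lie near the floor.

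LEC1 (AT1G21970, TAIR10.1 chromosome 1, 7727577 to 7729649, - strand) was above its WT level in the mutant seeds, on few reads. Its normalised counts were 12.2 and 11.2 in WT, 26.1 and 30.7 in ar21, and 28.8 and 20.8 in i4g1. All 4 mutant libraries lay above both WT libraries. In ar21 the fold change was 2.31 (95% interval 1.39 to 3.85), a log2 fold change of 1.21 ± 0.34 (SE) with limma's adjusted p = 0.0322. In i4g1 it was 2.01 (1.21 to 3.35), with a log2 fold change of 1.01 ± 0.34 and adjusted p = 0.0507, which misses the threshold of 0.05. The WT values rest on 10 and 4 reads, and the exact Poisson 95% interval of WT replicate 2, for counting error only, ran from 3.05 to 28.7 normalised counts. The call in ar21 was lost without WT replicate 2 (adjusted p = 0.062), ar21 replicate 1 (0.165) or ar21 replicate 2 (0.223), with no filter on low loci (0.071), and in edgeR on the recovered reads (0.144). edgeR and DESeq2 were run without ar21 replicate 1, here and below, so ar21 had a single library there. With TMM scaling LEC1 also passed in i4g1 (adjusted p = 0.049). In bulk seeds, more cells with a transcript and more transcript per cell cannot be told apart, here or for any gene below.

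The B3 domain factors did not pass in either line. FUS3 (AT3G26790, chromosome 3, 9853828 to 9856212, - strand), which drives storage protein and oil genes in the embryo, was at 455 and 532 in WT, 385 and 486 in ar21, and 447 and 455 in i4g1. The groups overlapped, with log2 fold changes of -0.19 (95% interval -0.49 to 0.12) in ar21 and -0.12 (-0.43 to 0.18) in i4g1. ABI3 (AT3G24650, chromosome 3, 8997370 to 9001185, + strand), the factor of the group most tied to abscisic acid responses and desiccation tolerance, was at 383 and 353 in WT, 387 and 384 in ar21, and 432 and 372 in i4g1. Its log2 fold changes were 0.07 (-0.20 to 0.34) and 0.12 (-0.15 to 0.40). These intervals leave room for a change of -0.49 in FUS3 and of 0.40 in ABI3. LEC2 (AT1G28300, chromosome 1, 9896867 to 9899876, - strand), which is best known for turning vegetative cells into embryo-like tissue when misexpressed, was listed at 1.22 and 2.8 in WT, 4.02 and 2.2 in ar21, and 6.12 and 1.3 in i4g1. That is 1 to 7 reads in the 5 libraries with recovered reads, which was too few to test.

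ABI4 (AT2G40220, chromosome 2, 16796247 to 16797585, - strand), an AP2-type factor of abscisic acid and sugar signalling, spread widely within WT. Its normalised counts were 54.9 and 28 in WT, 50.2 and 50.5 in ar21, and 87.4 and 50.8 in i4g1, with overlap between WT and each mutant line. The log2 fold changes were 0.35 ± 0.32 in ar21 (adjusted p = 0.51) and 0.75 ± 0.32 in i4g1 (0.119). WT replicate 2 rests on 10 reads. Without it, the log2 fold change in ar21 was -0.12, and without WT replicate 1 the value in i4g1 was 1.22 with adjusted p = 0.022. The value in i4g1 was 0.28 (0.571) without WT replicate 2 and 0.36 (0.588) without i4g1 replicate 1.

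Of the bZIP factors, ABI5 was lower in the mutant libraries without passing the test on all libraries. ABI5 (AT2G36270, chromosome 2, 15204659 to 15207636, - strand), which activates late embryogenesis genes and holds back germination under abscisic acid, was at 149 and 129 in WT, 75.4 and 113 in ar21, and 103 and 105 in i4g1. Each mutant library lay below both WT libraries. The log2 fold change was -0.58 ± 0.20 in ar21 (95% interval -1.01 to -0.14, adjusted p = 0.0724) and -0.41 ± 0.20 in i4g1 (-0.84 to 0.03, 0.167). Without ar21 replicate 2, the higher of the ar21 libraries, the ABI5 value in ar21 was -0.87. In that fit, with a single ar21 library, ABI5 passed as lower in ar21, while LEC1 and MYB118 did not pass there. Without ar21 replicate 1 the ABI5 value was -0.28. edgeR and DESeq2, which also lack ar21 replicate 1, gave -0.32 and -0.31. EEL (AT2G41070, chromosome 2, 17129753 to 17132386, + strand), which competes with ABI5 at the promoter of EM1, was at 1596.9 and 1400.1 in WT, 1374.5 and 1347.6 in ar21, and 1585.3 and 1218.5 in i4g1. Both ar21 libraries lay below WT and the i4g1 libraries overlapped it, with log2 fold changes of -0.14 (-0.44 to 0.17) and -0.11 (-0.41 to 0.20). EEL overlaps the annotated loci AT2G09215 on the other strand and AT2G41060 on its own, and the sources used here do not say whether the counting used strand, so reads of these loci cannot be told apart and its level is uncertain.

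WRI1 (AT3G54320, chromosome 3, 20114488 to 20118745, + strand), the AP2-type activator of oil synthesis, was at 590 and 652 in WT, 579 and 482 in ar21, and 697 and 515 in i4g1. The ar21 libraries lay just below WT, and the i4g1 libraries spanned it. The log2 fold changes were -0.23 (95% interval -0.57 to 0.10, adjusted p = 0.347) in ar21 and -0.05 (-0.39 to 0.28, 0.847) in i4g1.

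MYB118 was the regulator that passed in both lines. MYB118 (AT3G27785, chromosome 3, 10288603 to 10290934, - strand), known to hold down embryo-type maturation genes in the endosperm and to activate oil desaturation there, was at 69.5 and 92.4 in WT, 137 and 144 in ar21, and 135 and 129 in i4g1. All 4 mutant libraries lay above both WT libraries. It rose 1.74-fold in ar21 (95% interval 1.34 to 2.26), with a log2 fold change of 0.80 ± 0.17 and adjusted p = 0.00978. In i4g1 it rose 1.64-fold (1.26 to 2.13), with 0.71 ± 0.17 and adjusted p = 0.0127. The call in ar21 was lost without ar21 replicate 1 or ar21 replicate 2, and in edgeR and DESeq2, which lack ar21 replicate 1. That in i4g1 was lost without WT replicate 1 (0.058) or i4g1 replicate 1 (0.0706) and in DESeq2 (0.189), while edgeR kept it (0.024). Rescaled to the nuclear sum without 18S rRNA, MYB118 passed at 0.78 in ar21 and 0.63 in i4g1. MYB115 (AT5G40360, chromosome 5, 16144792 to 16146671, + strand), its close paralog, was listed at 0 in 4 libraries, at 0.732 in ar21 replicate 2 and at 0.874 in i4g1 replicate 1, each a single read.

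Of 10 endosperm markers listed, 4 were tested, and 1 passed in each line, as higher. Over all tested loci, 8.74% passed as higher in ar21 and 12.5% in i4g1. SUC5, a sucrose transporter of the endosperm, was at 23.2 and 50.4 in WT, 153 and 124 in ar21, and 82.2 and 93.7 in i4g1, and rose in both lines (log2 fold changes 1.98, adjusted p = 0.00119, and 1.33, adjusted p = 0.0072). ZOU, a bHLH factor of endosperm breakdown, was at 9.75 and 14 in WT, 34.2 and 21.2 in ar21, and 31.5 and 20 in i4g1. It did not pass (limma's adjusted p = 0.0682 and 0.0731). All 4 mutant libraries lay above WT for ZOU, as they did for 22.7% of all tested loci. EPR1, an extensin-like gene, was by far the most abundant at 81308.3 to 107059.5 and did not pass, and neither did MEA. The summed level of the list without EPR1 ranged from 56.1 to 104 in WT, from 165 to 214 in ar21 and from 143 to 146 in i4g1, and with EPR1 from 81364.4 to 101503.4, 82278.1 to 107224.9 and 81641.9 to 104709.1. SUC5 was the largest part of the sum without EPR1 in every library. MINI3 was at 0 in all libraries, and AGL62, FWA, FIS2, IKU2 and PHE1 were at 0 or nearly so. The part of endosperm content in the MYB118 result was not tested.

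**Figure D3:**
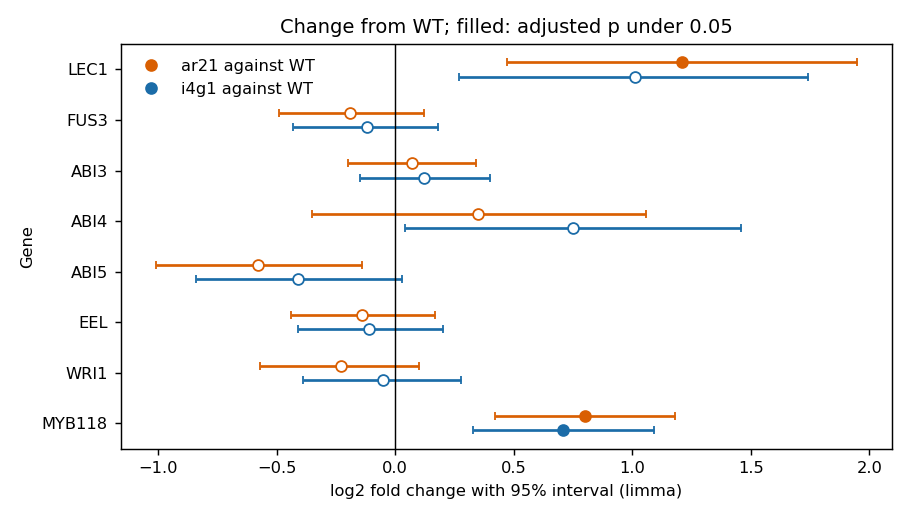
Log2 fold change from WT with its 95% interval (limma) for the 8 regulators that could be tested, in ar21 (orange) and i4g1 (blue), filled where the adjusted p was under 0.05. MYB118 passed in both lines and LEC1 in ar21, and the intervals of FUS3, ABI3, EEL and WRI1 cross 0 in both lines.

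As a group the regulators did not stand out from the rest of the transcriptome. In ar21, 2 of 8 tested (25%) passed, both higher, against 14.8% of all 15589 tested loci in either direction and 8.74% higher. In i4g1, 1 of 8 (12.5%) passed, as higher, against 22.4% of all tested loci in either direction and 12.5% higher. The median log2 fold change of the 8 was -0.03 in ar21 and 0.04 in i4g1, beside 0.01 and 0.01 over all tested loci. The i4g1 and ar21 comparisons share their WT libraries. Both ar21 libraries lay above both WT libraries in 3 of 8 regulators (37.5%) and below in 3 (37.5%), beside 30.4% and 28.5% of all tested loci. In i4g1 this was so in 2 (25%) and 1 (12.5%), beside 31% and 29.2%. LEC1 and MYB118 (25% of the 8) lay above WT in all 4 mutant libraries and ABI5 (12.5%) below it, where 22.7% of all tested loci lay above and 21.3% below, so such a pattern was common in these libraries. No regulator passed between ar21 and i4g1, where 0.282% of all loci did. The log2 differences ran from -0.40 in ABI4 to 0.20 in LEC1, with limma's adjusted p from 0.798 to 0.983 and 0 of 8 at an unadjusted p under 0.05, and edgeR and DESeq2 also called 0. For LEC1 the interval of this difference ran from -0.54 to 0.94.

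**Figure D4:**
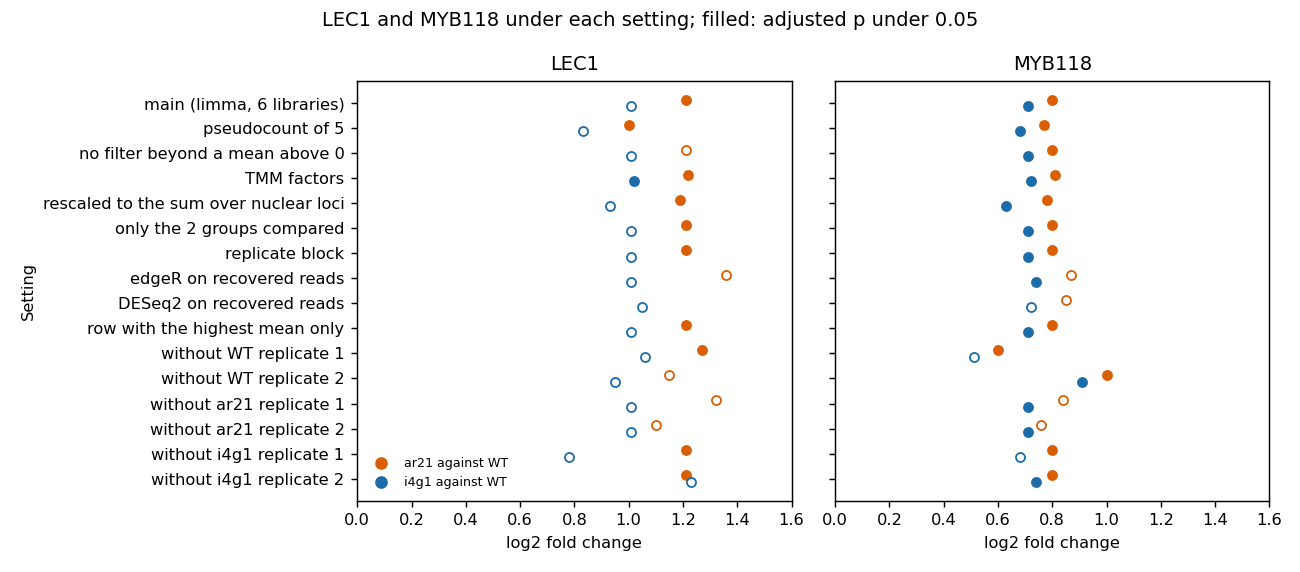
Log2 fold change of LEC1 and MYB118 from WT under each way of processing the counts, filled where the adjusted p was under 0.05; DESeq2 gave LEC1 no adjusted p in ar21, so that point is missing. Every value shown lies above 0, while the calls come and go with the library left out and the tool.

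Among partners of these factors the largest change was in bZIP67 (AT3G44460, also DPBF2), a seed bZIP that binds ABA-responsive elements with LEC1 and L1L. It stood at 768 and 890 in WT, 391 and 415 in ar21, and 483 and 412 in i4g1. The 4 mutant libraries lay well below both WT libraries, and it fell in ar21 (log2 fold change -1.04 ± 0.13, adjusted p = 0.00042) and in i4g1 (-0.89 ± 0.13, adjusted p = 0.000633). L1L (AT5G47670, also NF-YB6), the closest relative of LEC1, was at 343 and 336 in WT, 480 and 482 in ar21, and 390 and 344 in i4g1. It rose in ar21 (0.50 ± 0.12, adjusted p = 0.016) and did not pass in i4g1 (0.11, adjusted p = 0.552). The call in ar21 was lost without ar21 replicate 1, ar21 replicate 2 or WT replicate 2, and in edgeR and DESeq2. Of 11 partners and related activators, 7 were tested, with 1 higher, 1 lower and a median of -0.32 in ar21, and 0 higher, 1 lower and a median of -0.17 in i4g1, where 14.8% and 22.4% of all loci passed. The rest, among them AGL15, WRI3 and WRI4, did not pass in either line, and bZIP53 was not analysed here.

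Repressors of the programme silence it outside the seed. Of 14 tested, 2 passed in ar21 and 1 in i4g1, all higher, with medians of -0.03 and -0.02, where 14.8% of all loci passed in ar21 and 22.4% in i4g1. VAL1, a B3 domain repressor of LEC1 and FUS3, was at 449 and 470 in WT, 579 and 659 in ar21, and 617 and 582 in i4g1, above WT in all 4 mutant libraries. Its log2 fold changes were 0.43 (adjusted p = 0.0319) and 0.38 (0.0369). Each call was lost without any 1 of the libraries it compares, with no filter on low loci, and in edgeR and DESeq2. The call in i4g1 was also lost after rescaling to the nuclear sum (0.30, limma's adjusted p = 0.0862). It was lost too with the compared groups alone (0.0662) and without either ar21 library. MSI1, a subunit of Polycomb repressive complexes, passed in ar21 at 0.57 (adjusted p = 0.0481). That call was lost in edgeR and DESeq2, and without any 1 library but WT replicate 1. Polycomb subunits such as CLF, SWN and FIE did not pass.

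Another list held proteins that restrain ABI3 and ABI5. Of 8 tested, 0 passed in ar21 (median -0.10), where 14.8% of all loci passed. In i4g1, 1 was higher and 2 were lower (median -0.00), where 22.4% of all loci passed. KEG, the ubiquitin ligase that marks ABI5 for degradation, was at 282 and 288 in WT, 231 and 216 in ar21, and 180 and 185 in i4g1. It fell in i4g1 (-0.64 ± 0.13, adjusted p = 0.00422, but 0.0589 in DESeq2) and was at -0.35 in ar21 (adjusted p = 0.086). AFP4, of a family of proteins that bind ABI5, was at 70.7 and 78.4 in WT and 127 and 108 in i4g1, and rose there (0.65, adjusted p = 0.022). This call was lost without WT replicate 1 or i4g1 replicate 1, and in DESeq2. AFP2 passed in i4g1 at -0.45 (adjusted p = 0.0389). Leaving out any library but i4g1 replicate 2 ended that call, and it was also lost in edgeR and DESeq2.

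Of the genes the regulators are known to activate, a part of the late embryogenesis genes fell in each line. The storage and oil body genes tested did not pass, several of them on the wide intervals given below. Of 14 late embryogenesis genes, a list that also holds the dormancy gene DOG1, 12 were tested. Of these, 7 fell and 1 rose in ar21, with a median of -0.65, where 6.04% of all loci fell. In i4g1, 6 fell and 0 rose, with a median of -0.67, where 9.84% of all loci fell. DOG1 is counted among the falls in each line. The list was chosen with earlier results of these data known, so these shares are a description and not a test. LEA4-5, a LEA protein gene, was at 244 and 311 in WT, 107 and 123 in ar21, and 108 and 108 in i4g1. It fell in ar21 (-1.26 ± 0.16, adjusted p = 0.000502) and in i4g1 (-1.34 ± 0.16, 0.000218). EM1, a target that ABI5 activates and EEL represses, whose window above holds 2 ACGTG matches, was at 1351.8 and 1136.9 in WT, 570 and 652 in ar21, and 745 and 507 in i4g1. Every mutant library lay far below WT, with log2 fold changes of -1.02 ± 0.17 (adjusted p = 0.00232) and -1.01 ± 0.17 (0.00151).

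The LEA gene AT3G15670 was at 5229.4 and 4606.4 in WT, 2089.9 and 2490.2 in ar21, and 2428.7 and 1943.5 in i4g1, a fall of more than 1 on the log2 scale in each line (-1.10 and -1.18). DOG1, which sets seed dormancy, fell from 539 ± 69.8 in WT to 316 ± 3.48 in ar21 (adjusted p = 0.00434, but 0.0612 without ar21 replicate 1) and 341 ± 53.4 in i4g1 (0.00633, but 0.0508 without i4g1 replicate 2). RAB28 passed in i4g1 at -1.49 (adjusted p = 0.0217), lost without WT replicate 1 (0.0891) or i4g1 replicate 2 (0.134). Among the genes that passed, the other direction was seen in AT2G42560, named after its value was seen. It rose in ar21 (0.66, adjusted p = 0.0371), a call lost without WT replicate 2 or ar21 replicate 2. LEA7 and EM6, also named after their values were seen, did not pass in either line. LEA7 had positive values in both lines (0.28 in ar21 and 0.19 in i4g1). EM6, at only 4.77 to 69.5 normalised counts, was at 1.15 in ar21 and -1.11 in i4g1. The count of falling genes in ar21 was 3 without ar21 replicate 1, 5 without WT replicate 1, 4 in edgeR and 3 in DESeq2, and in i4g1 it was 3 without i4g1 replicate 2, 4 without WT replicate 1, 7 in edgeR and 5 in DESeq2.

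Of 9 storage protein genes listed, 6 were in the table and 4 were tested, and of 6 oil body genes 4 were tested. In each list 0 of 4 passed in each line, where 14.8% of all loci passed in ar21 and 22.4% in i4g1. The summed oil body list ranged from 150770.9 to 157568.8 in WT, from 118751.0 to 123432.5 in ar21 and from 125599.9 to 183117.7 in i4g1. The summed storage list overlapped WT in both lines. The medians were -0.21 and -0.29 for the storage list and -0.39 and -0.11 for the oil body list, in ar21 and i4g1. Some 95% intervals were wide: -1.19 to 0.56 for OLE1 in ar21, -1.07 to 0.05 for SESA5 in ar21 and -1.16 to 0.01 for OLE2 in i4g1. PAP85 (0.16 and 0.38) and OLE3 (0.02 and 0.07) had positive values in both lines. Falls like those of the late embryogenesis genes are thus not excluded for some genes here. The storage genes tested include CRA1, whose low level is given above. The caleosin gene CLO1, also named after its value was seen, was at 12241.0 and 11542.6 in WT, 8237.0 and 8340.2 in ar21, and 10635.0 and 8901.9 in i4g1, with adjusted p = 0.0597 in ar21. Fitted on the ar21 and WT libraries alone it passed there, at -0.52 with adjusted p = 0.0151, and likewise without i4g1 replicate 1 (0.0147) or i4g1 replicate 2 (0.0153). OLE2 and CLO1 lay below both WT libraries in every mutant library, as 21.3% of all loci did. PAP85 lay above them, as 22.7% of all loci did. SESA2, SESA3 and SESA4 were not analysed here.

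Of 15 targets of WRI1 in glycolysis and fatty acid synthesis tested, 1 rose in ar21 and 2 in i4g1, where 8.74% and 12.5% of all loci rose. None fell, and the medians were 0.12 and 0.11. The direction in i4g1 turned with the scaling, since after rescaling to the nuclear sum 0 rose and 3 fell there. Without WT replicate 1, 0 rose and 1 fell in ar21, and 0 rose and 3 fell in i4g1. BCCP1, a subunit of plastid acetyl-CoA carboxylase, was at 232 and 311 in WT, 422 and 408 in ar21, and 372 and 401 in i4g1. It passed at 0.63 in ar21 (adjusted p = 0.0144), lost without WT replicate 1 (0.0767), ar21 replicate 1 (0.135) or ar21 replicate 2 (0.0876). In i4g1 it passed at 0.53 (0.0234), lost without WT replicate 1 (0.136), i4g1 replicate 1 (0.0563) or i4g1 replicate 2 (0.104). KAR, a reductase of the same pathway, passed in i4g1 alone at 0.37 (adjusted p = 0.0375), and leaving out any library but i4g1 replicate 2 ended that call (0.0737 to 0.167).

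Acyl-ACP desaturases, which put the first double bond into fatty acids and include targets of WRI1 and MYB118, gave calls in both directions in i4g1. Of 5 tested, 2 fell in ar21 (median -0.43), and 3 fell and 1 rose in i4g1 (median -0.38). Of all loci 6.04% fell in ar21, and 9.84% fell and 12.5% rose in i4g1. AAD1 was at 818 and 868 in WT, 508 and 496 in ar21, and 525 and 469 in i4g1. It fell by 0.75 on the log2 scale in ar21 (adjusted p = 0.00162) and by 0.76 in i4g1 (0.000865). AAD2, for which a role downstream of MYB115 and MYB118 is known, was at 229 and 277 in WT, 291 and 299 in ar21, and 479 and 382 in i4g1, and it rose in i4g1 (0.76, adjusted p = 0.00341). AAD3, another such target, was at 35.4 and 33.6 in WT, 17.1 and 26.4 in ar21, and 13.1 and 10.4 in i4g1, and it fell in i4g1 (-1.48, adjusted p = 0.0101, but 0.0556 without i4g1 replicate 2). AAD5 passed narrowly, at -0.43 (0.0366) in ar21 and -0.38 (0.0485) in i4g1, and was lost in ar21 without any 1 of the WT and ar21 libraries (0.0522 to 0.274) and in i4g1 without any library but i4g1 replicate 1 (0.0584 to 0.221).

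**Figure D5:**
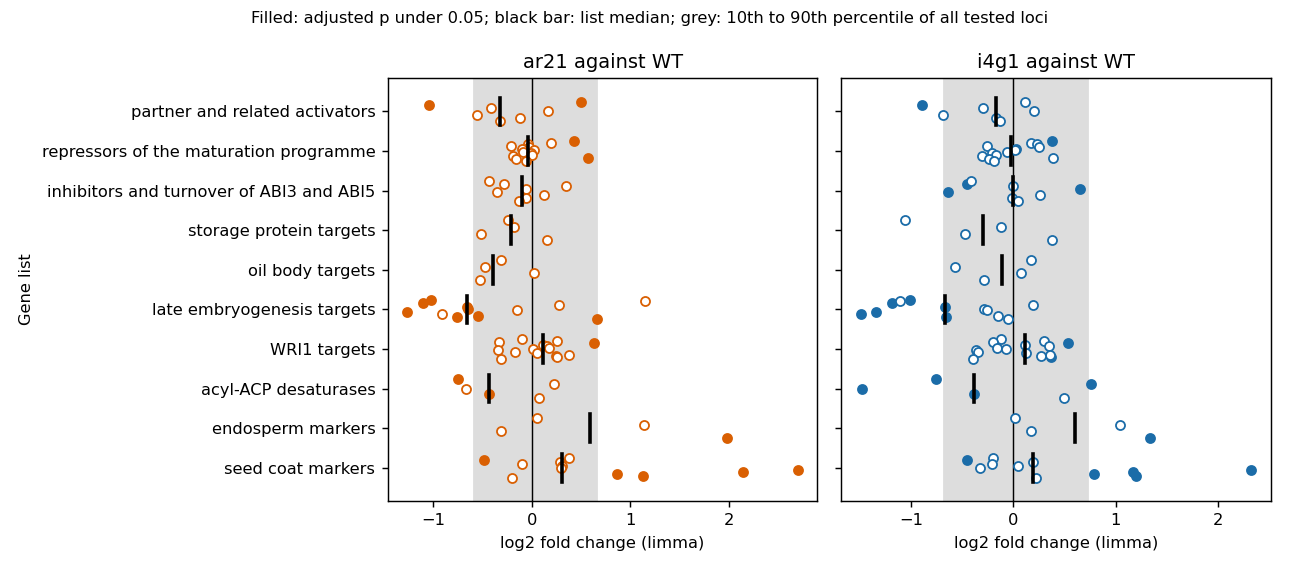
Log2 fold change from WT (limma) of each tested gene in 10 lists, filled where the adjusted p was under 0.05, with the median of each list as a black bar and the 10th to 90th percentile of all tested loci in grey. The late embryogenesis list reaches farthest to the left in both lines, and seed coat and endosperm genes farthest to the right.

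Of 12 seed coat markers listed, 11 were tested, and in each line 4 passed as higher and 1 as lower, with medians of 0.31 in ar21 and 0.19 in i4g1. Of all loci 8.74% passed as higher and 6.04% as lower in ar21, and 12.5% and 9.84% in i4g1. The mucilage gene MUM2, a beta-galactosidase, was at 9.75 and 16.8 in WT, 85.4 and 93 in ar21, and 56.8 and 82 in i4g1, with log2 fold changes of 2.70 (adjusted p = 0.000152) and 2.32 (0.000273). The subtilase gene SBT1.7, also of mucilage, rose by 0.87 and 0.79 (0.00183 and 0.00198). The other higher genes were GATL5 and PRX36, and the lower one was the chalcone synthase gene TT4, at -0.48 and -0.45. GATL5 lost its call in i4g1 without WT replicate 1 (0.0652) or i4g1 replicate 2 (0.102), and PRX36 lost its call in ar21 without any 1 library (0.0519 to 0.251) and in i4g1 without any but WT replicate 2 (0.051 to 0.186). TT4, named after its value was seen, lost its call in ar21 without any 1 of the WT and ar21 libraries (0.0797 to 0.249) and in i4g1 without any library but i4g1 replicate 1 (0.0618 to 0.193). The summed level of the list ranged from 9644.6 to 9828.9 in WT, from 12494.2 to 13130.2 in ar21 and from 10985.2 to 11994.9 in i4g1, and no listed gene was at 0 throughout. The largest rise in this sum was that of SBT1.7, from a mean of 3409.1 in WT to 6237.7 in ar21 and 5893.4 in i4g1. The abundant genes TT10 and TT4 had lower means in both lines than in WT. The part of seed coat content in the results above was not tested. Markers of shoot tissue outside the seed summed to 997 to 1242.1 in WT, 767 to 785 in ar21 and 976 to 1187.2 in i4g1, with GL1 at 0. TGG1 made up most of this sum in every library, at 701 to 1164.1 normalised counts. Of all loci, 14.8% passed in ar21 and 22.4% in i4g1, in either direction. Of 3 tested, TGG1 passed in ar21 at -0.58 (0.0119, lost without WT replicate 1, ar21 replicate 1 or ar21 replicate 2 at up to 0.112) and TGG2 in i4g1 at 1.78 (0.0304, lost without WT replicate 2 at 0.138 or i4g1 replicate 2 at 0.335).

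Among the regulators themselves, LEC1 and MYB118 had a Pearson correlation of 0.91 over the 6 libraries on the log2 scale, and ABI5 ran against both (-0.69 with LEC1 and -0.78 with MYB118). ABI3 and ABI4 ran together at 0.95. These points share the lines, the libraries and their depth, so the values describe these 6 libraries only. The loci most like LEC1 were AT1G69020 (0.996), AT3G02420 (0.995) and ATRBP45C (0.994), those most like MYB118 were AT3G06950 (0.997), RPL4D (0.996) and GDH2 (0.994), and those most like ABI5 were MSL3 (0.991), AT5G65120 (0.988) and ATMPK15 (0.983). With 6 libraries, 774 loci reached 0.9 with LEC1, 915 with MYB118 and 211 with ABI5, so the order among the nearest carries little weight.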

How the data were processed

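Per the labels, total RNA from seeds went into 6 libraries made with a TruSeq RNA kit, whose usual protocol takes poly(A) RNA and leaves strand unmarked. The authors deposited a signal per locus, the normalised count, in which reads were divided by the size factor of the library. Per the submitters' processing notes the tools were DESeq2 1.12.4, HTSeq 0.6.0, StringTie 1.0.3 and STAR 2.4.0j and the build was TAIR10. The sources used here give no roles or parameters. Columns were matched to samples by name, and 0 value columns were left over. Rows of 1 locus were summed, which turned 34001 rows into 33471 loci. Of these, 32527 were found by locus tag in RefSeq's TAIR10.1 annotation, the source of coordinates and sequences.

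Values were whole multiples of 1 step per library (tolerance 0.001), and whole reads were taken from 5 libraries. In ar21 replicate 1 the values were whole multiples too (100%), at a step of 1.00476. The check used did not accept a step so close to 1. That library therefore entered only as normalised counts, although its values did not force this. Tests used limma 3.58.1 in R 4.3.3 on log2(normalised count + 1), with all 6 libraries in 1 fit, 1 mean per group, an intensity trend, loci with a mean of at least 10 (15589 loci), Benjamini-Hochberg adjustment over all of them and a threshold of 0.05, two-sided. The scripts were tested on simulated data. Fold changes are on this log2 scale and understate changes of low loci. Nothing in the labels says how the replicates were grown apart, so p-values measure the spread between these libraries. Alternatives were a pseudocount of 5, no filter, TMM scaling, a rescaling to the nuclear sum, the compared groups alone, a replicate block, edgeR 4.0.16 and DESeq2 1.42.0 on the 5 libraries with reads, the highest row of a locus, and each library left out.

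The regulators and 12 gene lists (116 genes: partners, repressors, inhibitors, storage, oil body, late embryogenesis, WRI1 targets, desaturases, endosperm, seed coat, shoot and the eIFiso4G pair) were chosen with earlier results of these data known. All regulators are named. Of each list, up to 4 genes with the largest change among those past the threshold are named, with bZIP67 and L1L in any case; genes named outside this rule were picked after their values were seen or are given as background levels.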

Additional observations from a re-analysis of the deposited data

Results flagged for a closer look

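The test of the difference between the mutant lines passed for 2 of the genes named. eIFiso4G1 (AT5G57870) stood 1.80 higher on the log2 scale in ar21 than in i4g1 (limma, adjusted p = 0.0109), at 119 ± 5.25 against 35 ± 14.9 normalised counts (SD, n = 2), in 2 of 2 ar21 libraries. The call was lost without ar21 replicate 1 (0.113) or ar21 replicate 2 (0.0946). The myrosinase gene TGG2 (AT5G25980), a marker of shoot tissue outside the seed, differed by -2.93 (adjusted p = 0.0442), at 7.77 ± 2.47 in ar21 against 78.4 ± 64 in i4g1. Its i4g1 libraries stood at 33.2 and 124, and its call was lost without any 1 library but i4g1 replicate 1 (0.0509 to 0.441). Groups of 2 libraries were too small to look for single outlying libraries.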

How the results depend on the processing

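Of the log2 fold changes recomputed under the alternatives, 1037 kept direction and call, 172 kept direction and lost the call, 8 gained it and 8 turned direction. The turned values came from leaving out 1 library, and the values then ranged from -0.02 to 0.43 for LEC1 between ar21 and i4g1, -0.12 to 0.82 for ABI4 in ar21, -0.30 to 0.08 for EEL in i4g1, -0.27 to 0.17 for WRI1 in i4g1 (0.02 without WT replicate 2), -0.13 to 0.01 for AFP4 in ar21 and -0.28 to 0.19 for AT2G42560 in i4g1 (0.03 without i4g1 replicate 2). None of these had passed.

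The count of regulators that passed in ar21 (2) became 1 with no filter, 0 in edgeR and 0 in DESeq2, and 0 to 2 with 1 library left out. In i4g1 the count (1) became 2 with TMM scaling and 0 in DESeq2, and 0 to 1 with 1 library left out. Over all loci, the 2304 calls in ar21 became 633 in edgeR, 369 in DESeq2 and 523 to 2386 with 1 library left out (523 without ar21 replicate 1, 833 without ar21 replicate 2). The 3485 calls in i4g1 became 1293 in DESeq2 and 2051 to 3194 with 1 library left out (2051 without i4g1 replicate 1, 2279 without i4g1 replicate 2). The 44 calls between ar21 and i4g1 became 2 with no filter, 2 in edgeR, 7 in DESeq2 and 2 to 159 with 1 library left out (2 without ar21 replicate 1, 3 without ar21 replicate 2, 6 without i4g1 replicate 2, 159 without i4g1 replicate 1). edgeR and DESeq2 used 5 libraries, so ar21 had a single library there, assumed to vary like the others, and the cause of the remaining moves was not tested.

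Whether replicate numbers pair the libraries could not be settled, since each group has only 2 libraries. Over 15589 loci, deviations of same-numbered libraries correlated at -0.08 between WT and ar21, -0.03 between WT and i4g1 and 0.12 between ar21 and i4g1. With a replicate block, 2457 loci passed in ar21, 3672 in i4g1 and 82 between the lines, and no regulator's call changed.

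With 4 to 10 reads in WT for LEC1 and 10 for ABI4 in WT replicate 2, depth limits these values, and changes of LEC2 and MYB115 were not detectable at this depth.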
